A study of Mus musculus with 12 samples.

Results

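The enzymes that carry glyceraldehyde 3-phosphate to lactate were examined as targets of HIF1A and ARNT, the subunits of the hypoxia-inducible factor HIF-1. The set was 8 named genes out of 21631 protein-coding genes: Gapdh, Pgk1, Pgam1, Eno1, Eno2, Pkm, Ldha and Ldhb. Each gene was taken with its mm10 span plus 10 kb on either side, and every deposited peak that overlapped this window was kept. N1E115 cells, a mouse neuroblastoma line described in the labels as positive for NOS1, were grown for 3 days at 4% O2 or at 20% O2, in both cases with 5% CO2. Chromatin immunoprecipitation and sequencing (ChIP-seq) gave 2 peak lists each for HIF1A at 4% O2, HIF1A at 20% O2, ARNT at 4% O2 and ARNT at 20% O2. Of the 12 samples the other 4 were inputs, 2 per oxygen level. All of this comes from 1 cell line, and the labels do not say whether replicates were separate cultures, so that any spread between lists may be technical.

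HIF-1 is a heterodimer of HIF1A, which is hydroxylated and degraded when oxygen is plentiful, and ARNT, which is present regardless of oxygen. The dimer binds DNA at the hypoxia response element, whose core letters are ACGTG or GCGTG. Lower glycolysis makes ATP and NADH from triose phosphate, and lactate dehydrogenase turns pyruvate into lactate and so returns the NAD+ that GAPDH needs. Several of these genes are textbook HIF-1 targets, and neurons and neuroendocrine cells also carry their own enolase, encoded by Eno2.

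Promoter letters are shown where a HIF1A summit of 4% O2 among the upper 1% of its list fell inside the RefSeq promoter window, and for Ldhb, where no list had a peak. Each line runs 5′ to 3′ from 250 bases before to 50 bases after a RefSeq start (GRCm38.p6, the same build as mm10), in the direction of transcription. Capitals mark ACGTG and GCGTG on either strand, so that CACGT and CACGC are the same cores read from the opposite strand.
Pgam1 (chr19:41911621-41911920, plus strand): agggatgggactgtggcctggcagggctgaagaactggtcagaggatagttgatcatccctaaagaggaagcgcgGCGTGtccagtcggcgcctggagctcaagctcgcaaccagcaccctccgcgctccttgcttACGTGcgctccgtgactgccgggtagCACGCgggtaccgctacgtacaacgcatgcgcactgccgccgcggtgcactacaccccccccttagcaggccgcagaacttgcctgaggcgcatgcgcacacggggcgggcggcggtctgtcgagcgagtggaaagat
Pgk1 (chrX:106186850-106187149, plus strand): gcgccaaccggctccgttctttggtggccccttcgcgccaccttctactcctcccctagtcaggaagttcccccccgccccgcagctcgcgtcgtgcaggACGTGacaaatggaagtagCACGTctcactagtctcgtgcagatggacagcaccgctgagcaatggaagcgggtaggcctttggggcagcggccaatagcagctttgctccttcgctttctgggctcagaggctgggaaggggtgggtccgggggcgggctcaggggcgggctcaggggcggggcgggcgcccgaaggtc
Gapdh (chr6:125165724-125166023, minus strand): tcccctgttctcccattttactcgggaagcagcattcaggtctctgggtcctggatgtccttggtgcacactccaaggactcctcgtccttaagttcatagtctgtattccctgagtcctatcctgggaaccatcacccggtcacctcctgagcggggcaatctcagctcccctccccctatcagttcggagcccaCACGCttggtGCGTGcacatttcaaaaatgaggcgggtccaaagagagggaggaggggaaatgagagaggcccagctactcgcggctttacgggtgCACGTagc
Ldha (chr7:46845554-46845853, plus strand): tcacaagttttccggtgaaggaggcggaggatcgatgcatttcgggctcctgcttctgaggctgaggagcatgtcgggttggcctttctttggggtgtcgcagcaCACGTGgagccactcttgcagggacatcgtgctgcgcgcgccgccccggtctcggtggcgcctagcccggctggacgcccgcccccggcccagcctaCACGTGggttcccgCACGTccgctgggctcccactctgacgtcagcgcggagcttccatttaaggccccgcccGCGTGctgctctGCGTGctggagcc
Pkm (chr9:59656977-59657276, plus strand): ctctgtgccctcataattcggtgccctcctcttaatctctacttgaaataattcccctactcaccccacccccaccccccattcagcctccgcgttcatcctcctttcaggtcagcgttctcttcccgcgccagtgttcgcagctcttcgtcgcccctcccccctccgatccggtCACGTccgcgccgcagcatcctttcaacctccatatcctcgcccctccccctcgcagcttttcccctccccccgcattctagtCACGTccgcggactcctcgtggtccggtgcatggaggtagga
Eno2 (chr6:124769624-124769923, minus strand): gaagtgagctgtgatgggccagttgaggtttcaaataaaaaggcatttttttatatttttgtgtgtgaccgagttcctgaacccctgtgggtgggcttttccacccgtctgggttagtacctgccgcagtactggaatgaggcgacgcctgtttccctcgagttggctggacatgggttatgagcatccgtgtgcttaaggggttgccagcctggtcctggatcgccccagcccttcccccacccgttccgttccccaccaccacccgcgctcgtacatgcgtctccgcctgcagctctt
Ldhb (chr6:142507908-142508207, minus strand): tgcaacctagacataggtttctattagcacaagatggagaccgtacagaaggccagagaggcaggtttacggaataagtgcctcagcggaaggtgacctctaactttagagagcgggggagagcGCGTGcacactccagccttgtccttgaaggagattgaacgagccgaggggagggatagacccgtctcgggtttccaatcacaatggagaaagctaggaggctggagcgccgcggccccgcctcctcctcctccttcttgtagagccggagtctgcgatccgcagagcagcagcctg

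HIF1A and ARNT both had peaks at the starts of 7 of the 8 genes at 4% O2, and Ldhb had no peak in any list. A stretch covered by peaks of both replicates is called a region here. The windows of 7 of 8 genes held a HIF1A region at 4% O2, as those of 33.9% of all protein-coding genes did, and 5 of 8 held one at 20% O2, against 9.67% of all genes. An ARNT region lay in 7 of 8 windows at 4% O2, against 27.7% of all genes, and in 5 of 8 at 20% O2, against 7.11%. The genes were the same for both antibodies. Eno2 and Ldha had such a region at 4% O2 and not at 20% O2, while Gapdh, Pgk1, Pgam1, Eno1 and Pkm had one at both oxygen levels. These 5 genes thus had a region in all 4 groups, as 1.99% of all genes did, and a peak in all 8 lists, as 2.38% did. Both antibodies had a region at 4% O2 in 7 of 8 windows, against 24% of all genes.

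Counted list by list, HIF1A had a peak in 7 and 7 of the 8 windows at 4% O2 (56.9% and 34.8% of all genes) and in 5 and 7 at 20% O2 (11.3% and 31.7%), in the order replicate 1, replicate 2. With ARNT the counts were 7 and 7 at 4% O2 (49.3% and 35.5% of all genes) and 7 and 5 at 20% O2 (22.3% and 7.6%). The HIF1A replicates of 20% O2 differed by the same pair of genes, Eno2 and Ldha, which replicate 1 lacked.

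Each of the 7 genes with peaks had a site near a start, though many peaks of the windows lay elsewhere. Within 1 kb of a RefSeq start, a region was found at the same 7 genes for each antibody at 4% O2 (18% of 17274 genes with a listed start for HIF1A, 15.9% for ARNT) and at the same 5 genes at 20% O2 (1.96% for HIF1A, 3.24% for ARNT). In single lists a HIF1A peak lay that close in 7 and 7 genes at 4% O2 (38.4% and 18.3% of those genes) and in 5 and 7 at 20% O2 (2.18% and 15.3%). An ARNT peak did so in 7 and 7 at 4% O2 (29.3% and 21.1%) and in 5 and 5 at 20% O2 (9.36% and 3.51%). Of 167 peaks in the 8 windows over all lists, 89 had their centre within 1 kb of a start. The share over the windows of all genes is not given, so this count has no background. At Pkm the highest HIF1A summit of 4% O2 lay further off, at +2683 bp. The lead HIF1A region of each gene, meaning the highest by mean percentile, overlapped an ARNT region of the same oxygen level in 7 of 7 genes at 4% O2 and 5 of 5 at 20% O2. Over all HIF1A regions the shares were 45.6% of 12586 at 4% O2 and 21.1% of 4275 at 20% O2. Lead regions are the highest of their windows, at ranks 1 to 52 and lengths of 1190 to 4610 bp at 4% O2. The shares over all regions are not matched to them in rank or length. HIF1A replicate 1 and all ARNT lists were called against input 4 of their oxygen level, so the lists of the antibodies are not independent in their background.

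The score in each list is the authors' own value per peak and has no named scale, so each peak is described by its rank or percentile within its own list (100 is the highest). The lists differ in length, from 1808 peaks in ARNT at 20% O2 replicate 2 to 42701 in HIF1A at 4% O2 replicate 1, so ranks of different lists are set side by side and not read as a change. For the highest peak of each of the 7 genes at 4% O2, the lowest percentile was 99.86 in HIF1A replicate 1 (Ldha) and 99.61 in replicate 2 (Eno2). In ARNT at 4% O2 it was 99.80 in replicate 1 (Ldha) and 98.97 in replicate 2 (Gapdh). At 20% O2 the lists of an antibody parted: HIF1A replicate 2 held all 7 genes, the lowest at 99.58 (Gapdh), and replicate 1 held 5 of them between 19.1 and 89.7. ARNT at 20% O2 gave 24.2 to 97.9 in replicate 1 (7 genes) and 16.8 to 94.1 in replicate 2 (5 genes).

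The plot of the highest peak per gene and list shows this order, with the HIF1A replicate 2 list of 20% O2 beside the lists of 4% O2 and the other lists of 20% O2 below them. In the upper 1% of each list, a cut-off chosen after the values were seen, HIF1A had 7 and 7 of the 8 genes at 4% O2 (2.02% and 0.749% of all genes) and 0 and 7 at 20% O2 (0.162% and 0.643%), for replicates 1 and 2. ARNT had 7 and 6 at 4% O2 (1.19% and 0.582%) and 0 and 0 at 20% O2 (0.481% and 0.125%). The gene missing from ARNT at 4% O2 replicate 2 was Gapdh, at rank 103 of 9920. The HIF1A replicate 2 lists were of nearly the same length, 13655 peaks at 4% O2 and 13386 at 20% O2. Unlike the other lists they joined reads of 2 sequencing runs and used input 5, and the part of these differences in the result was not tested.

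**Figure D1:**
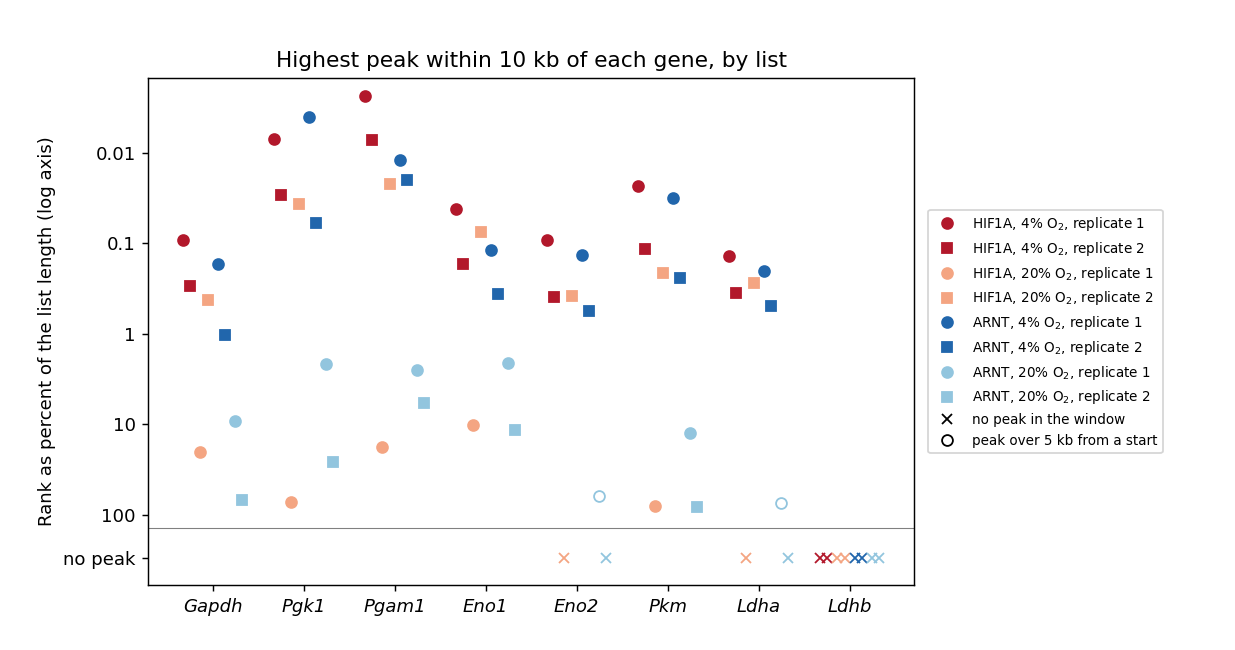
Rank of the highest peak within 10 kb of each gene as a percent of the length of its list (log axis, the highest ranks at the top), for 8 lists; circles are replicate 1, squares replicate 2, crosses mark lists with no peak in the window and open symbols a peak over 5 kb from any start. In the 4 lists of 4% O2 the 7 genes other than Ldhb lie above or near the 1% mark, and at 20% O2 only HIF1A replicate 2 has them there.

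With each list cut to its 1808 highest peaks, the length of the shortest, the number of the 8 genes with a peak was 7 and 7 in HIF1A at 4% O2 (7.53% and 8.19% of all genes) and 3 and 7 at 20% O2 (4.82% and 6.68%). The ARNT lists gave 7 and 7 (8.3% and 8.93%) under 4% O2, and 5 and 5 (8.08% and 7.6%) under 20% O2. The 3 genes in HIF1A at 20% O2 replicate 1 were Gapdh, Pgam1 and Eno1. The 5 genes in ARNT at 20% O2 were Gapdh, Pgk1, Pgam1, Eno1 and Pkm in both replicates. At equal list length Eno2 and Ldha had a peak in all 4 lists of 4% O2 and in 1 of the 4 lists of 20% O2, HIF1A replicate 2.

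Gapdh encodes glyceraldehyde 3-phosphate dehydrogenase, which makes NADH and is widely used as a loading control (gene 14433, mm10 chromosome 6, 125161852 to 125166467, minus strand). Its start site ranked 39 of 42701 and 41 of 13655 in HIF1A at 4% O2, and 1095 of 5393 and 57 of 13386 in HIF1A at 20% O2. In ARNT it ranked 43 of 24942 and 103 of 9920 at 4% O2, and 673 of 7252 and 1245 of 1808 at 20% O2. The summit lay at +9 bp from the start at 4% O2 and at -3 bp at 20% O2 in HIF1A replicate 2. When only the highest peak of each of the 7 genes is counted, that of Gapdh ranked lowest in ARNT at 4% O2 replicate 2 (103) and in HIF1A at 20% O2 replicate 2 (57).

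A further site lay at -852 bp from the listed Gapdh start. The gene span reaches upstream of that start, to 125166467, and the HIF1A summit of 20% O2 lay 158 bp outside this 5′ end. This further site had peaks at ranks 95 and 192 in ARNT at 4% O2, and none in either ARNT list of 20% O2. HIF1A replicate 2 listed no summit there at 4% O2 and one at rank 59 of 13386 at 20% O2. Those lists give 1 bp positions only, so they do not show whether a peak at 4% O2 reached this site. In HIF1A at 4% O2 replicate 1 a single interval of 3006 bp covered both Gapdh sites, so that the list does not separate them. In all, 8 of the 26 peaks in the Gapdh window lay nearer to the ends of Iffo1 (6) or Ncapd2 (2), the neighbouring genes.

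Pgk1 encodes phosphoglycerate kinase, the first ATP-yielding step of glycolysis (gene 18655, mm10 chromosome X, 106187100 to 106203699, plus strand). At its start HIF1A ranked 3 of 42701 and 4 of 13655 at 4% O2, and 3922 of 5393 and 5 of 13386 at 20% O2. ARNT ranked 1 of 24942 and 6 of 9920 at 4% O2, and 156 of 7252 and 477 of 1808 at 20% O2. Pgk1 was thus the highest peak of an ARNT list at 4% O2, and among the 6 highest in all 4 lists of 4% O2. The HIF1A lists of 20% O2 put the same site far apart, at percentile 27.1 in replicate 1 and near the top of replicate 2. The HIF1A interval at 4% O2 replicate 1 was 3390 bp long. A weaker site lay upstream, with its HIF1A summit at -2664 bp. At 4% O2 it gave a HIF1A region at 106184351 to 106184849 (mean percentile 85.0) and an ARNT region at 106184345 to 106184688 (mean percentile 79.8), and no list of 20% O2 had a peak there.

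Pgam1 encodes phosphoglycerate mutase, which moves the phosphate of 3-phosphoglycerate to make 2-phosphoglycerate (gene 18648, mm10 chromosome 19, 41911871 to 41918665, plus strand). HIF1A ranked it 1 of 42701 and 1 of 13655 at 4% O2, and 969 of 5393 and 3 of 13386 at 20% O2. ARNT ranked it 3 of 24942 and 2 of 9920 at 4% O2, and 184 of 7252 and 106 of 1808 at 20% O2. This was the highest peak of both HIF1A lists of 4% O2. All 4 lists of 20% O2 had a single peak in the window, each centred between -122 and -110 bp from the start. The HIF1A summit at 4% O2 lay at -98 bp. Of the 16 peaks in the Pgam1 window, 1 lay nearer to an end of Gm46644.

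Eno1 encodes alpha-enolase, the enolase of most tissues (gene 13806, mm10 chromosome 4, 150236708 to 150248879, plus strand). HIF1A ranked it 18 of 42701 and 23 of 13655 at 4% O2, and 550 of 5393 and 10 of 13386 at 20% O2. ARNT ranked it 30 of 24942 and 36 of 9920 at 4% O2, and 153 of 7252 and 211 of 1808 at 20% O2. In HIF1A at 20% O2 replicate 1 it was the highest of the set, and in ARNT at 20% O2 replicate 1 too. The HIF1A summits lay between the RefSeq starts, at +205 bp from the first at 4% O2 and at +211 bp at 20% O2, outside the promoter windows, so no promoter letters are shown. A weaker site inside the gene, at 150239987 to 150240344, had a HIF1A region at 4% O2 (mean percentile 76.5) and no peak at 20% O2.

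Eno2 encodes gamma-enolase, the neuron-specific enolase used as a marker of neurons and neuroendocrine tumours (gene 13807, mm10 chromosome 6, 124760053 to 124769673, minus strand). At its start HIF1A ranked 40 of 42701 and 54 of 13655 at 4% O2. At 20% O2 replicate 1 had no peak and replicate 2 ranked the site 51 of 13386. ARNT ranked it 34 of 24942 and 56 of 9920 at 4% O2 and had no peak at the start in either list of 20% O2. The HIF1A summits lay at +4 bp from the start at 4% O2 and at +8 bp at 20% O2. The single ARNT peak in the window at 20% O2 (replicate 1, rank 4500 of 7252) lay beyond the other end of the gene, at 124759479 to 124759584. That far site also had a peak in ARNT at 4% O2 replicate 1 (rank 24794 of 24942) and in HIF1A at 20% O2 replicate 2 (rank 4837 of 13386). Of the 13 peaks in the Eno2 window, 2 lay nearer to an end of Lrrc23 and 1 to an end of Atn1. Among these was the HIF1A interval at rank 40 of 42701, centred 111 bp from the Lrrc23 end and 307 bp before the Eno2 start. The site is thus not assigned to Eno2 alone.

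Pkm encodes the muscle-type pyruvate kinase, whose splice forms M1 and M2 make pyruvate and ATP (gene 18746, mm10 chromosome 9, 59656576 to 59679372, plus strand). Besides a site at its second start it had one deeper inside the gene. The HIF1A summit of highest rank lay at 59659910, +2683 bp from the nearer start, at rank 16 of 13655 at 4% O2 and 29 of 13386 at 20% O2 in replicate 2. ARNT ranked this inner site 8 of 24942 and 24 of 9920 at 4% O2. At 20% O2 ARNT replicate 1 ranked it 1491 of 7252, and ARNT replicate 2 and HIF1A replicate 1 had no peak there. The inner site thus outranked the one at the start in both ARNT lists of 4% O2.

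The site at the second Pkm start, at -62 bp, ranked 113 of 13655 in HIF1A at 4% O2 replicate 2, and 4296 of 5393 and 70 of 13386 in HIF1A at 20% O2. ARNT ranked it 110 of 24942 and 297 of 9920 at 4% O2, and 917 of 7252 and 1494 of 1808 at 20% O2. It had a peak in all 8 lists, counting HIF1A at 4% O2 replicate 1, where an interval of 4610 bp ranked 10 of 42701 covered both sites. At the first Pkm start, a lower-ranking HIF1A replicate 2 summit lay at -236 bp at 4% O2 (rank 1227 of 13655) and at -225 bp at 20% O2 (rank 10831 of 13386). Outside Pkm, 6 of its 37 peaks lay nearer to ends of the lncRNA Gm51708 (4) or of Gramd2 (2), and 10 inside Pkm lay nearer to ends of the lncRNA LOC115487221. Among these 10 were the HIF1A replicate 2 summits of the inner site, 2658 bp (4% O2) and 2656 bp (20% O2) from such an end. By their centres, the ARNT peaks of 4% O2 at the inner site lay nearer to Pkm. The inner site is thus not assigned to Pkm alone.

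**Figure D2:**
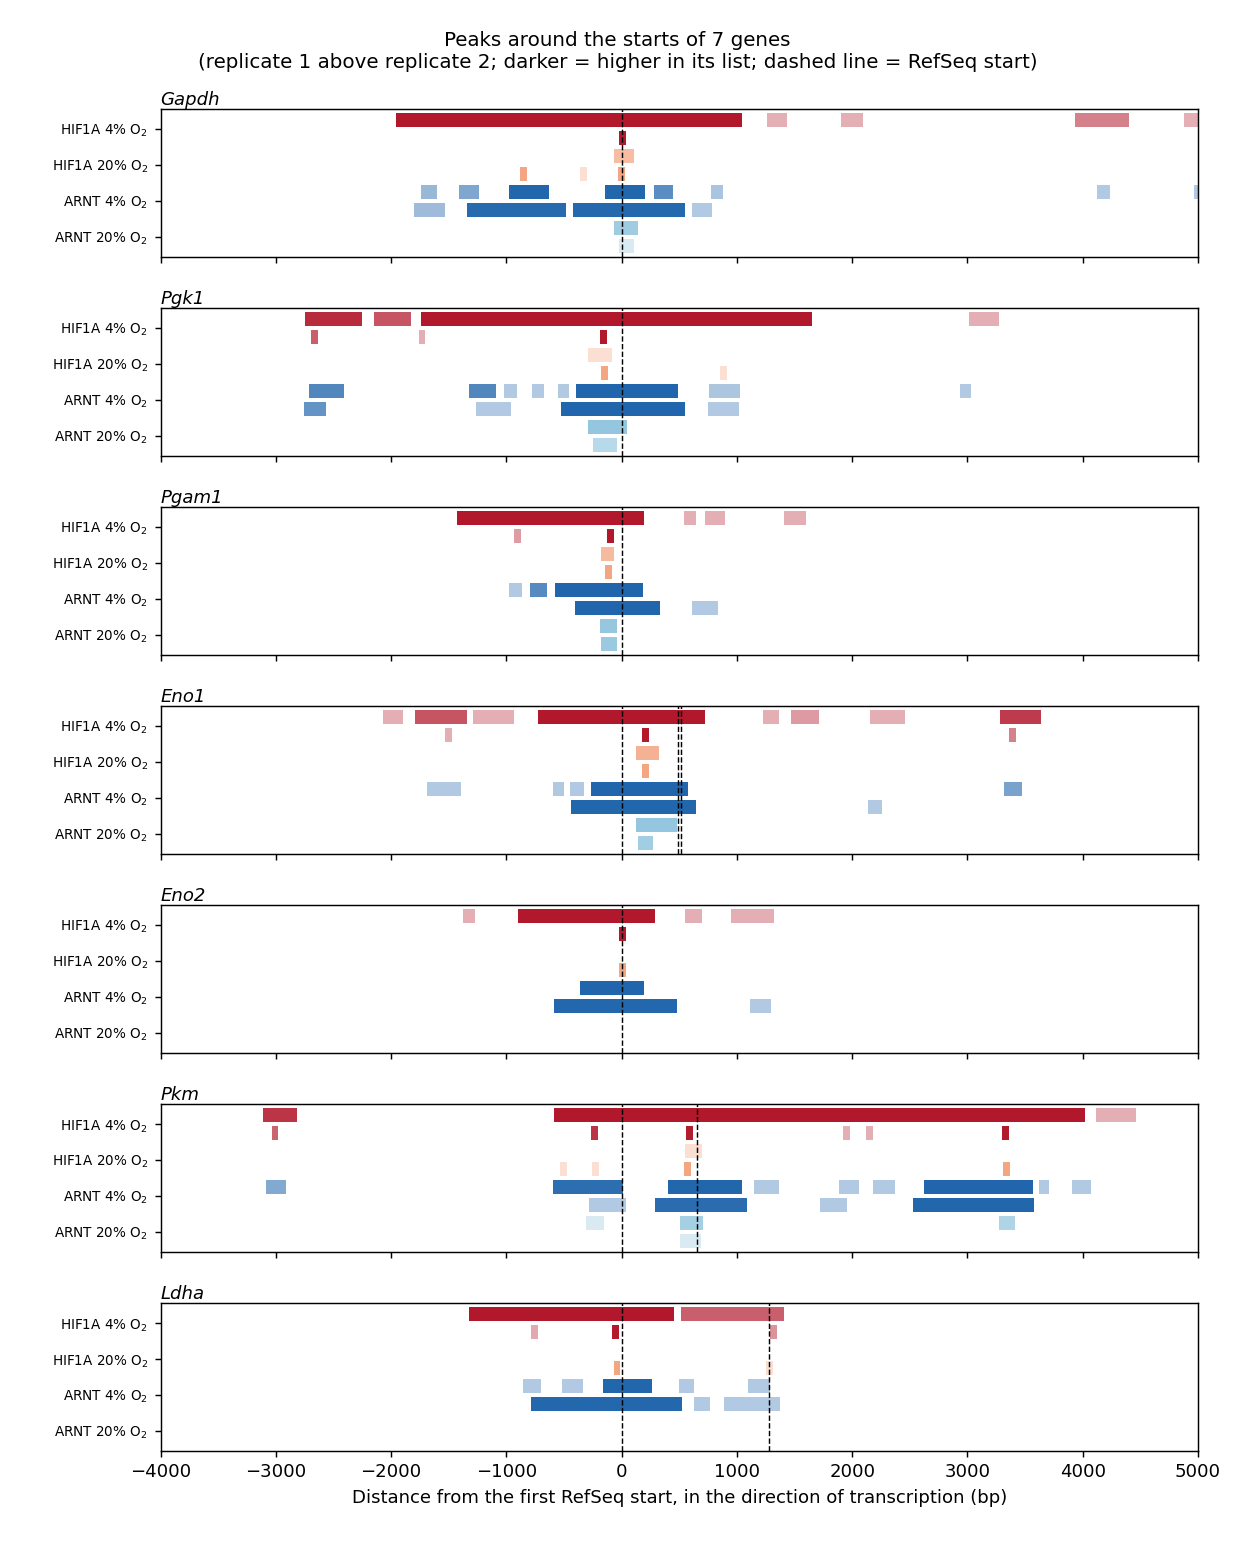
Peaks from 4 kb before to 5 kb after the first RefSeq start of 7 genes (distance in bp, in the direction of transcription), with replicate 1 above replicate 2 for each antibody and oxygen level; red and orange are HIF1A at 4% and 20% O2, dark and light blue ARNT, 1 bp summits are drawn wider than they are, and within a row darker bars are higher in their own list. Long bars in HIF1A at 4% O2 replicate 1 (up to 4610 bp at Pkm) cover sites that the other lists separate, and Ldha and Eno2 have no ARNT bar at 20% O2.

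Ldha encodes the A subunit of lactate dehydrogenase, the form that prevails in tissues that make lactate (gene 16828, mm10 chromosome 7, 46842274 to 46855627, plus strand). At the start at 46845804, HIF1A ranked 60 of 42701 and 49 of 13655 at 4% O2. At 20% O2 replicate 1 had no peak anywhere in the window, and replicate 2 ranked the site 37 of 13386. ARNT ranked it 51 of 24942 and 49 of 9920 at 4% O2 and had no peak at the start at 20% O2. The HIF1A summits lay at -56 bp at 4% O2 and at -40 bp at 20% O2.

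Lower-ranking sites lay upstream of Ldha. HIF1A at 4% O2 had regions at 46838820 to 46839300 (mean percentile 55.1) and 46840426 to 46840809 (32.6), which no list of 20% O2 matched. A further region, at 46833305 to 46833573 (50.6), lay next to the pseudogene Gm5331, and held the single ARNT peak of the Ldha window at 20% O2 (replicate 1, rank 5413 of 7252). The second Ldha start, at 46847082, had low-ranking peaks in HIF1A replicate 2 at +43 bp at 4% O2 (rank 5579 of 13655) and at +7 bp at 20% O2 (rank 9027 of 13386). Ldhc, the testis-specific lactate dehydrogenase gene that follows Ldha on the chromosome, had no peak in its own window in any of the 8 lists.

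Ldhb encodes the B subunit, the form of heart and of tissues that take up lactate (gene 16832, mm10 chromosome 6, 142490249 to 142507957, minus strand). It had 0 peaks in the 10 kb window in each of the 8 lists, as 38.9% of all protein-coding genes did, and 0 with 50 kb on either side. The nearest peak lay 103 kb and 145 kb away in HIF1A at 4% O2, and 410 kb away in both HIF1A lists of 20% O2. For ARNT it lay 103 kb and 592 kb away at 4% O2, and 103 kb away in both lists of 20% O2. The peak at 103 kb was the same stretch in 4 lists, near 142387045, and stood at percentiles of 11.9 to 65.5. Lists of peaks above a threshold do not tell weak binding from none.

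Core letters stood 10 to 35 bp from the summit in most of the promoters printed above. Apart from Ldhb, those were picked for a summit inside the window. Distances in other promoters with a summit are not given, so these have no background. The 8 genes have 12 promoter windows in RefSeq, of which 10 held ACGTG or GCGTG. By gene, 7 had either core in at least 1 window and 5 had ACGTG. Among all 32851 RefSeq promoters of the same length, 43.8% held either core on either strand and 19.6% held ACGTG. Among the 3290 promoters that overlapped a HIF1A region at 4% O2 the shares were 82.9% and 47.6%, and among the 333 that overlapped one at 20% O2 they were 58% and 28.5%. Peaks in both lists chose those promoters, so the shares describe them and are no test.

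The centre of the nearest core was 12 bp from the HIF1A summit of 4% O2 (replicate 2) at Pgam1, 13 bp at Pgk1, 10 bp at Ldha, 11 bp at the second Pkm start and 35 bp at Gapdh. Pgk1 held 2 copies of ACGTG on opposite strands, at -150 and -131 bp by their first letter. Ldha held 7 matches in 5 separate stretches, since each of its 2 copies of the palindrome CACGTG, printed above, counts as 2 overlapping matches. Of all promoters 3.86% held 4 or more matches and 7.15% held CACGTG, and of those that overlapped a HIF1A region at 4% O2, 17.4% and 16.8% did. Eno2, with a summit at +4 bp, had neither core in its window, nor did the window of the first Pkm start. Ldhb held 1 GCGTG, at -126 bp, and no peak. A match of letters is a description and not a binding site.

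**Figure D3:**
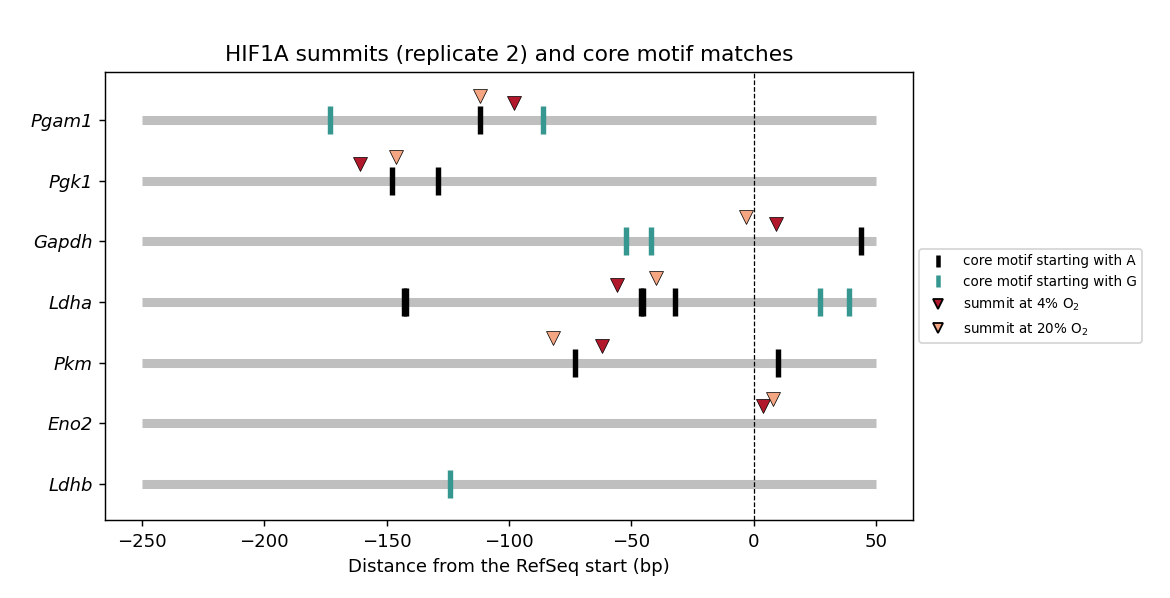
Matches to the core motif on either strand (vertical ticks) and HIF1A replicate 2 summits at 4% O2 (red triangles) and 20% O2 (orange triangles) along 7 promoter windows, in bp from the RefSeq start (the second start for Pkm, the first for Ldha). In Pgam1, Pgk1, Ldha and Pkm the summits of 4% O2 lie 10 to 13 bp from the nearest match, and Eno2 has summits and no match.

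HIF1A summits lay at nearly the same bases at both oxygen levels. At the lead site of the 7 genes the summit of 20% O2 in replicate 2 lay 2 to 16 bp from that of 4% O2, from 2 bp at the inner Pkm site to 16 bp at Ldha. At the second Pkm start it lay 20 bp away. Over the whole list, 7442 of 13655 summits of 4% O2 (54.5%) had a summit of 20% O2 within 500 bp, at a median distance of 24 bp, and 45.6% of these were within 20 bp. These lists alone are of 1 bp positions, so the comparison rests on 1 list per oxygen level and has no replicate check.

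The number of peaks in the window was higher at 4% O2 than at 20% O2 on average at all 7 genes that had peaks, as at 56.3% of all protein-coding genes. Ldha had 8 and 6 HIF1A peaks and 8 and 3 ARNT peaks at 4% O2, against 0 and 2 HIF1A peaks and 1 and 0 ARNT peaks at 20% O2, a difference of 5.5 in the mean per list (two-sided exact permutation test within antibody, p = 0.0556). Pkm had 5 and 7 HIF1A peaks and 11 and 5 ARNT peaks at 4% O2, against 1 and 4 HIF1A peaks and 3 and 1 ARNT peaks at 20% O2, a difference of 4.75 (exact p = 0.0556). For these genes every list of 4% O2 held more peaks than either list of the same antibody at 20% O2. This p is the smallest that 36 arrangements allow, so no gene could pass 0.05, and 10.3% of all protein-coding genes reached it with more peaks at 4% O2. The HIF1A replicate 2 counts are of 1 bp positions and all other counts are of intervals. An interval can cover sites that another list separates, so the HIF1A lists exchanged in the test differ in unit.

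Eno1 averaged 4.75 peaks per list at 4% O2 and 1 at 20% O2, Pgk1 4.75 and 1.25, and Pgam1 3 and 1, and each of these genes also reached that smallest exact p of 0.0556. Gapdh averaged 5 and 1.5 (exact permutation p = 0.167) and Eno2 2.5 and 0.75 (exact permutation p = 0.222), with lists of the oxygen levels that overlapped for HIF1A. Ldhb had none. The median difference was 3.5 peaks over the 8 genes and 0.25 over all protein-coding genes. In the replicate 1 lists, which shared a sequencing lane per the file headers, the differences at the 7 genes were 3 to 7.5, and in the replicate 2 lists 0.5 to 3.5, with Gapdh at 6.5 and 0.5. With 1808 peaks in each list they were 0.75 at Eno2 and at Ldha, 1 at Pkm, 0.25 at Gapdh and at Pgk1, and 0 at Pgam1 and Eno1, with no exact permutation p below 0.167. With peaks merged within 500 bp the 7 differences were 0.75 to 2.75. The lists of 4% O2 were also the longer ones within each antibody and replicate.

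**Figure D4:**
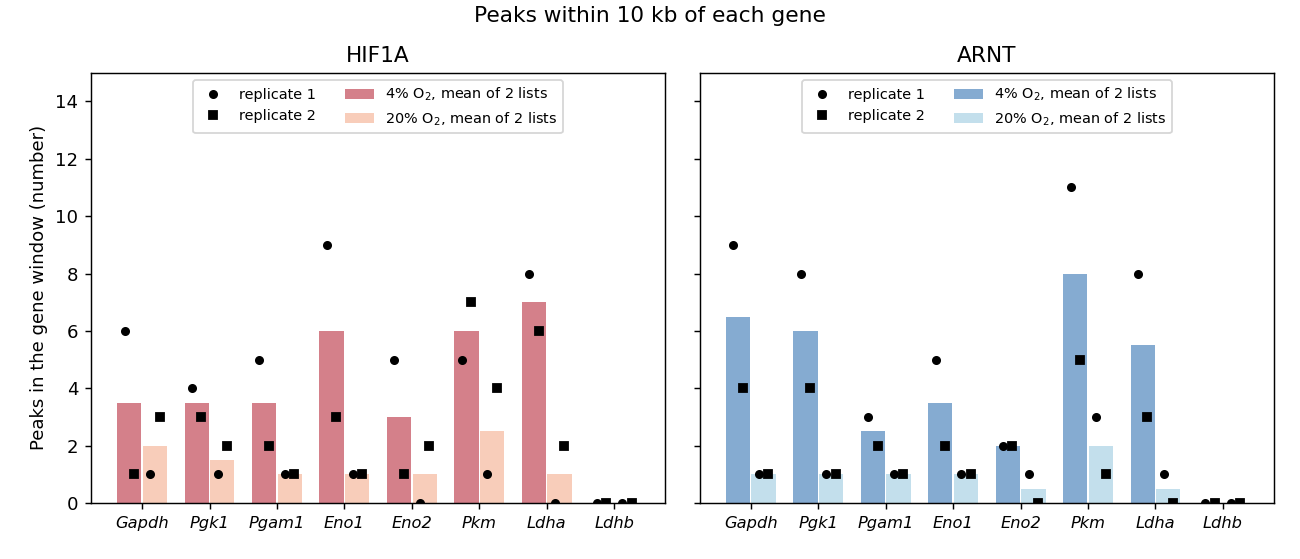
Number of peaks within 10 kb of each gene for HIF1A (left) and ARNT (right); bars are the mean of 2 lists at 4% O2 (left bar of each pair) and 20% O2 (right bar), circles replicate 1 and squares replicate 2. Ldha runs from 3 to 8 peaks at 4% O2 and from 0 to 2 at 20% O2, and Ldhb has none. HIF1A replicate 2 counts 1 bp positions, and the other lists count intervals.

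Genes for other forms of the same enzymes, several of them used in sperm, muscle or liver, were set beside the 8. Bpgm, which encodes the related bisphosphoglycerate mutase, was counted with them. Of 9 such genes (Gapdhs, Pgk2, Pgam2, Eno3, Eno4, Pklr, Ldhc, Bpgm and Eno1b), a HIF1A region lay in 4 windows at 4% O2 and in 1 at 20% O2 (33.9% and 9.67% of all genes). An ARNT region lay in 4 windows at 4% O2 and in 2 at 20% O2 (27.7% and 7.11% of all genes). Those with one for both antibodies at 4% O2 were Eno3, the muscle enolase (mean percentile 75.7 for HIF1A and 47.4 for ARNT), Pgam2, the muscle mutase (70.3 and 49.3), and Gapdhs, the sperm form (68.3 and 44.0). No gene of this comparison had peaks in all 8 lists (2.38% of all genes did), and 3 (Pgk2, Ldhc and Eno1b) had none at all (38.9% of all genes). Of 13 genes of upper glycolysis, 11 had a HIF1A region at 4% O2 and 3 at 20% O2 (33.9% and 9.67% of all genes). For ARNT, 10 of them had a region at 4% O2 and 2 at 20% O2 (27.7% and 7.11% of all genes). The leading genes of upper glycolysis at 4% O2 were Pfkl (phosphofructokinase), Aldoa (aldolase), Gpi1 (glucose phosphate isomerase) and Tpi1 (triosephosphate isomerase), at mean percentiles of 99.7 or more for HIF1A and 99.6 or more for ARNT.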

How the data were processed

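Binding was measured by ChIP-seq in 12 samples, 8 of them with a deposited peak list. BWA, Picard and MACS2 were used with mm10, per the submitters' processing notes, without versions or settings. Per the names of the deposited lists, the authors called peaks sample by sample against input 4, or input 5 for HIF1A replicate 2, and deposited a score per peak with no named scale. The HIF1A replicate 2 lists hold 1 bp positions, read here as summits, and the other 6 hold intervals. No read counts are in the lists, so depth is unknown. Here peaks were ranked within each list, and a region was a merged stretch (overlap of 1 bp) holding peaks of both replicates. Genes came from RefSeq on GRCm38.p6, starts and promoter letters from the RefSeq promoter table, which listed all 8 genes. The spans of Gapdh and Ldha begin upstream of any start listed there. Exons and introns were not used. Each gene's peak number was tested with an exact permutation test, with labels exchanged within each antibody. Its code was checked on simulated data. Python 3.11.15 and pandas 2.3.3 were used.

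The 8 members and the comparison lists were chosen with earlier results of these data known. All members were named. From a comparison list, genes were named that had a region for both antibodies at 4% O2, at most 4 per list by mean percentile. Sites away from the starts were picked out after their values were seen. Neighbouring genes were named where a peak lay nearer to their end. The alternatives were other windows, stricter or equal-length lists, a larger overlap (stricter for ARNT only), merged entries, single replicates and a replicate block.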

Additional observations from a re-analysis of the deposited data

How the results depend on the processing

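At 4% O2 the count of 7 of 8 genes with a region stayed within 1.5 times for both antibodies in all alternatives, among them other windows, the upper 50% of each list, 1808 peaks per list, a 50% overlap and single replicates. The 50% overlap is a stricter rule for ARNT only. HIF1A replicate 2 holds 1 bp positions, so any overlap there already covers the shorter peak. The share of all genes moved far more over these, between 6.65% (1808 peaks) and 56.9% (without replicate 2) for HIF1A and between 5.41% (1808 peaks) and 49.3% (without replicate 2) for ARNT. At 20% O2 the HIF1A count of 5 was 3 over the gene span alone (6.3% of all genes), 3 with the upper 50% of each list (5.81%) and 3 with 1808 peaks per list (2.93%), and the ARNT count of 5 was 3 with the upper 50% (4.26%). Lead HIF1A regions of 20% O2 that overlapped ARNT were 2 of 3 with the upper 50% and 3 of 3 with 1808 peaks, against 5 of 5. Shares over all HIF1A regions are not given for these alternatives. At 20% O2 HIF1A had 7 genes without replicate 1 (31.7% of all genes) and 5 without replicate 2 (11.3%), and ARNT had 5 without replicate 1 (7.6%) and 7 without replicate 2 (22.3%). Among the highest peaks, HIF1A at 20% O2 replicate 1 had 5 genes with 5000 peaks, against 3 with 1808 (4.82% of all genes). ARNT at 20% O2 replicate 2 had 3 with 1000, against 5 with 1808 (7.6%). Shares of all genes at 1000 and 5000 peaks are not given, so these counts have no background. A cut to 5000 keeps nearly all 5393 peaks of that HIF1A list. The cause was not tested, beyond fewer peaks or a smaller window by construction. The list of ARNT at 20% O2 replicate 2 was too short for 5000.

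In the mean over the lists of both antibodies, no gene had fewer peaks at 4% O2 than at 20% O2 in any alternative. Within HIF1A replicate 2 alone, Gapdh had 1 peak at 4% O2 and 3 at 20% O2, and Eno2 had 1 and 2. The other genes with peaks had more at 4% O2 in that replicate. The labels do not say that a replicate number marks a shared culture or day, but the replicate 1 lists shared a sequencing lane, per the file headers, and HIF1A replicate 2 had its own input and joined runs. With the replicate block the differences stayed at 0 to 5.5 and 5 genes reached p = 0.125, the smallest that 16 arrangements of this exact test allow. The deviations of same-numbered lists correlated at -0.486 over 13224 genes for HIF1A and 0.578 for ARNT. Replicate 1 was the longer HIF1A list at 4% O2 (42701 against 13655 peaks) and the shorter at 20% O2 (5393 against 13386). For ARNT it was the longer at both levels (24942 against 9920, and 7252 against 1808). The signs go with list length, so the correlations do not show which lists belong together. With the HIF1A numbers crossed, chosen after seeing the data, 6 genes reached the exact p of 0.125 and 0 passed 0.05. Unknown depth, unequal lists and 2 lists per group limit every comparison here.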
